A study of Mus musculus with 8 samples.

Results

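The paired myeloid immunoreceptors are cell surface receptors encoded in families that hold both inhibitory and activating forms. Members were taken by gene symbol in the deposited table: all symbols beginning with Cd300, Trem followed by a digit or l, Sirp, Lilr, Pilr, Pira, Pirb, Cd200r, Slamf or Ms4a, together with Tyrobp, Hcst and I830077J02Rik. The rule used names only and no measured value. It took 57 of 41444 genes. Of these, 36 had a mean of at least 4 over the 8 libraries and were tested, 13 lay below that level, and 8 were listed at 0 in every library.

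The samples were wild-type C57BL/6 mouse macrophages grown from flushed femur and tibia marrow with 100 ng/mL M-CSF, the growth factor that drives macrophage differentiation. Cells adhered for 2 days and were cultured for a further 6 days. One group of 4 received 6 nM SLIT2 for 16 hours and the other group of 4 received vehicle, with no other allele or agent named; the labels read here name neither a dose nor a time for the vehicle, and no age of the animals. SLIT2 is a secreted ligand of ROBO receptors, known first from axon guidance. The comparison asks how SLIT2 changed the transcripts of these receptors, and values are regularized-log (rlog) expression on a log2 scale, so that a difference of 1 is a doubling before shrinkage.

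Inhibitory receptors of these families carry tyrosine motifs in their tails (ITIMs, or related motifs) that recruit phosphatases such as SHP-1 and SHIP1 once phosphorylated by Src-family kinases. Activating forms have short tails and signal through partner chains, chiefly DAP12 (Tyrobp), DAP10 (Hcst) and the Fc receptor gamma chain (Fcer1g), which carry activating motifs read by SYK or PI3-kinase. In macrophages the balance of both forms sets thresholds for phagocytosis, fusion and cytokine release. SLAM receptors mostly bind one another between cells, and MS4A proteins are tetraspan membrane proteins that associate with other receptors.

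The libraries fell into sets: replicates 1 and 2 of each group stood apart from replicates 3 and 4. Deviations from the group means correlated across genes at 0.637, 0.671, 0.753 and 0.587 between same-numbered samples of the groups. Unlike-numbered samples of the same set correlated alike, at 0.609, 0.722, 0.679 and 0.601. Samples of different sets correlated at -0.744 to -0.58. The values thus show shared sets and no pairing by number within a set. Values are therefore also given within each set, and a fit with the replicate number as a block is quoted where it changed a call. All 8 macrophage markers examined passed the level filter, with Csf1r at 15.81 and Emr1 at 15.27 in vehicle cells. Among them Fcgr1 rose by 1.17 (limma adjusted p = 0.0016) and Cd68 fell by 0.25 (limma adjusted p = 0.0183), while Itgam was 0.74 higher and did not pass (limma adjusted p = 0.169; 6.29e-04 with the replicate block). Of 5 stromal markers 3 passed the filter, with Col1a1 at 8.11 in vehicle cells and 8.27 with SLIT2, as did 2 of 5 osteoclast markers; none of these was called by limma. Of the B cell and the T or NK cell markers, 0 passed it, and of 8 neutrophil markers 2 did. Read counts were not used here, so the depth is unknown. Whether replicates came from separate animals or cultures is not stated in the labels. The p-values therefore measure spread among these libraries, and that spread may be technical.

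With SLIT2, 6 of the 36 members tested rose and 6 fell by limma at an adjusted p of 0.05, against 6.76% of all 11851 genes tested rising and 6.58% falling. In either direction this was 12 of 36 members, beside 13.3% of all genes. With the replicate block, 14 rose and 8 fell, where the share over all genes was 16.6% and 16.4%, or 33.0% in either direction. On duplicates averaged within each set, with the set as a block, 6 rose and 5 fell, against 373 and 315 of all 11851 genes. Of the 12 members called without a block, 8 passed in that fit. Pirb, Sirpb1b, Sirpb1c and Sirpa did not. Of the 10 members called only with the replicate block, 3 passed on averaged duplicates (Ms4a4a, Ms4a6b and Ms4a6c) and 7 did not. Groups did not overlap for 9 members higher and 6 lower with SLIT2, against 10.6% and 9.99% of all genes (20.5% in either direction). The median absolute difference was 0.38 over the tested members and 0.11 over all genes tested, while the signed medians were 0.09 and 0.00. A difference of at least 1 that passed the test was found for 4 members, I830077J02Rik, Ms4a6d, Sirpb1a and Sirpb1c, against 1.38% of all genes. In cell cultures measured in bulk, fewer cells of a type and less RNA per cell cannot be told apart.

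**Figure D1:**
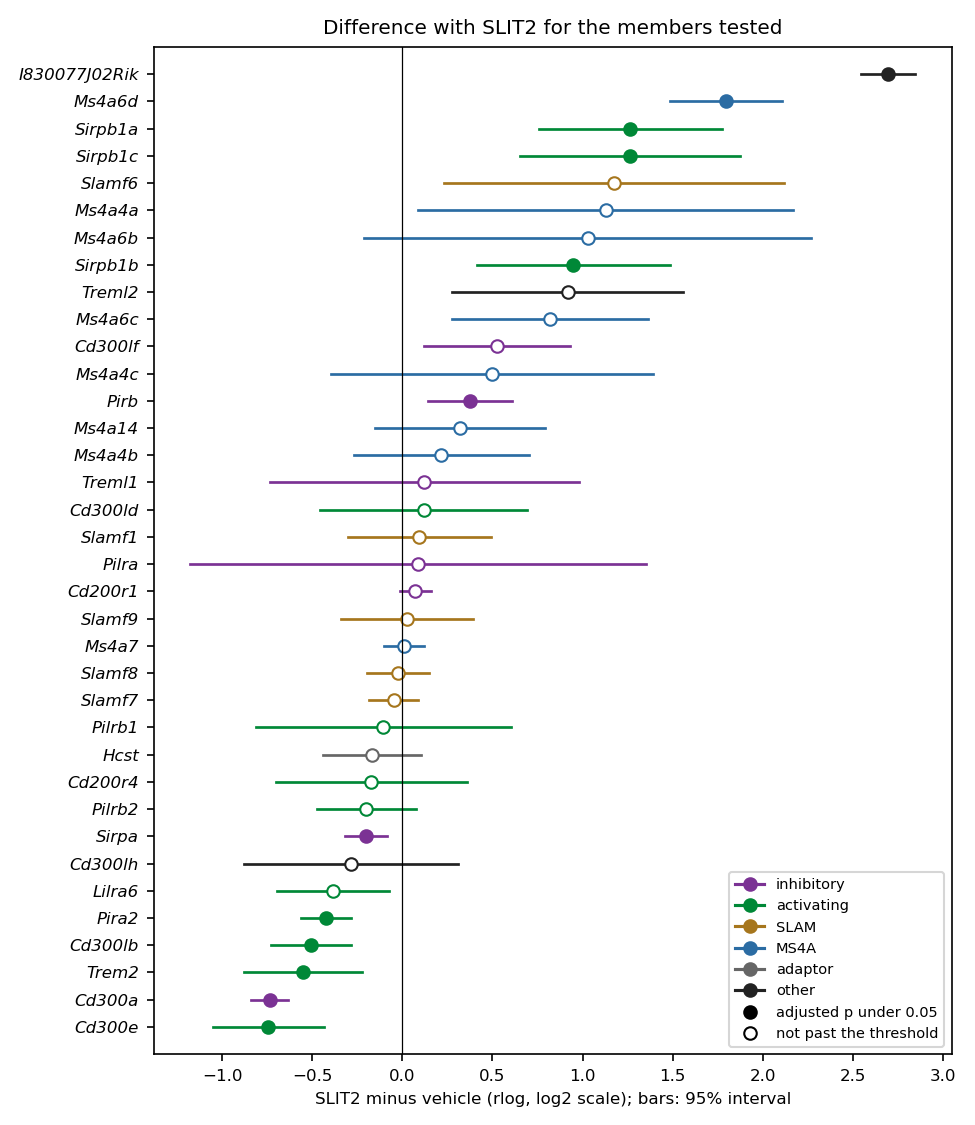
Difference between SLIT2 and vehicle (rlog, log2 scale, horizontal axis) for the 36 members tested, sorted by size, with bars for the 95% interval from limma. Filled points passed an adjusted p of 0.05, and colours give the role; I830077J02Rik at 2.70 lies farthest to the right and Cd300e at -0.74 farthest to the left.

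The SIRP family changed in opposite directions within itself. Sirpa encodes the inhibitory receptor that binds CD47 and restrains phagocytosis, and Sirpb1a, Sirpb1b and Sirpb1c encode activating relatives that pair with DAP12. The 3 Sirpb1 genes lie side by side on chromosome 3 (GRCm38, 15371653 to 15848528), away from Sirpa on chromosome 2 (129592835 to 129632228, ENSMUSG00000037902). Their promoters are shown because they are near copies that share a STAT-type motif. The 149 bases printed lie upstream of the annotated starts (RefSeq, GRCm38.p6), 5′ to 3′ on the minus strand, at chr3:15426525-15426673 for Sirpb1a, chr3:15575070-15575218 for Sirpb1b and chr3:15848533-15848681 for Sirpb1c. Capitals mark the match to TTCNNNGAA.
Sirpb1a: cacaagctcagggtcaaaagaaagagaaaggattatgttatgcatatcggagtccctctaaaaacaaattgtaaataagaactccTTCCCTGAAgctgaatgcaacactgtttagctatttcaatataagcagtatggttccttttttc
Sirpb1b: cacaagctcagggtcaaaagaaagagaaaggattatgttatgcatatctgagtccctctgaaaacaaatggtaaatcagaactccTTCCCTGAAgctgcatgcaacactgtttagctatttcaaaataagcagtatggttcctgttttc
Sirpb1c: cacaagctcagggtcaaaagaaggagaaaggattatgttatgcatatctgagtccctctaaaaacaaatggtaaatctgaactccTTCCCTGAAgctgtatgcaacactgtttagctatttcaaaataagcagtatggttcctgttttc
Aligned by the motif, Sirpb1a differed from Sirpb1b at 7 of the 149 positions and from Sirpb1c at 8, and Sirpb1b from Sirpb1c at 4. The motif is its own reverse complement in the letters fixed, so 1 search covers both strands. It was found in the 250 bases upstream of 6 of the 48 members with a RefSeq promoter and of 7.02% of 32851 promoters. Those 6 were the 3 Sirpb1 genes, Cd300e, which fell with SLIT2, and Lilra5 and Trem1, which lay below the level tested. A match describes these letters and not a bound site.

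Sirpb1a (ENSMUSG00000095788) stood at 6.46, 6.41, 6.14 and 6.07 in vehicle replicates 1 to 4 and at 8.0, 7.87, 7.11 and 7.16 with SLIT2. Every SLIT2 value lay above every vehicle value, and in both groups replicates 1 and 2 were the higher ones. The difference was 1.27 (SE 0.222, limma adjusted p = 0.00743). Sirpb1c (ENSMUSG00000074677) stood at 8.22, 8.18, 7.79 and 7.86 in vehicle cells and at 9.79, 9.75, 8.84 and 8.72 with SLIT2. The groups did not overlap, with a difference of 1.26 (SE 0.266, limma adjusted p = 0.0169). The adjusted p was 0.0502 without vehicle replicate 4 and 0.061 on averaged duplicates. Sirpb1b (ENSMUSG00000095028) stood at 6.79, 6.66, 6.67 and 6.6 and rose to 8.19, 7.96, 7.19 and 7.17. Its difference was 0.95 (SE 0.233, limma adjusted p = 0.0328), and it passed in 2 of the 8 fits that left out 1 library (adjusted p from 0.0215 to 0.0875). On averaged duplicates Sirpb1b did not pass (limma adjusted p = 0.121).

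The size of the Sirpb1 rise differed between replicate sets. In replicates 1 and 2 the differences were 1.5 for Sirpb1a, 1.35 for Sirpb1b and 1.57 for Sirpb1c. In replicates 3 and 4 they were 1.03, 0.55 and 0.96. The difference between sets passed limma for Sirpb1b (adjusted p = 0.0211) and Sirpb1c (adjusted p = 0.0140) and not for Sirpb1a (adjusted p = 0.0752). These were the 2 of 36 members that did so, against 4.38% of all genes, and this test rests on the spread within duplicates. The genes also share sequence: 54.5%, 72.2% and 56.9% of the 31-base words in the transcripts of Sirpb1a, Sirpb1b and Sirpb1c occur in other genes. How the authors' counting divided such reads is unknown here, so the division of the rise among the 3 genes is uncertain.

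Sirpa, of whose words 0.0392% were shared, read 16.71, 16.72, 16.64 and 16.68 in vehicle cells. With SLIT2 it read 16.51, 16.51, 16.42 and 16.50. The groups did not overlap although the difference was small, and Sirpa fell by 0.20 (SE 0.0507, limma adjusted p = 0.0349). It missed the threshold in each of the 8 fits without 1 library (adjusted p from 0.0587 to 0.0985) and on averaged duplicates (limma adjusted p = 0.163). Cd47, the ligand of SIRPA, was 0.16 higher and did not pass (limma adjusted p = 0.337; 0.00588 with the replicate block; 0.133 on averaged duplicates).

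The paired immunoglobulin-like receptors also moved apart. Pirb (ENSMUSG00000058818, chromosome 7, 3711409 to 3720391) encodes the inhibitory form, which binds MHC class I, and Pira2 (ENSMUSG00000089942, chromosome 7, 3836812 to 3845051) an activating form that signals through the Fc receptor gamma chain. The aligned 200 bases upstream of both genes are shown because they are nearly identical while the values went opposite ways. They lie at chr7:3720405-3720604 for Pirb and chr7:3845102-3845301 for Pira2 (RefSeq, GRCm38.p6, minus strand). Capitals mark GAGGAA, a core recognised by the myeloid factor PU.1, or its reverse complement TTCCTC.
Pirb: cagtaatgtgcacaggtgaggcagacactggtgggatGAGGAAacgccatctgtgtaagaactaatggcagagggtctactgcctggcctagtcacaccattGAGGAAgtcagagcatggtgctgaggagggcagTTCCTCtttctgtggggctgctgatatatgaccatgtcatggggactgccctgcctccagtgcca
Pira2: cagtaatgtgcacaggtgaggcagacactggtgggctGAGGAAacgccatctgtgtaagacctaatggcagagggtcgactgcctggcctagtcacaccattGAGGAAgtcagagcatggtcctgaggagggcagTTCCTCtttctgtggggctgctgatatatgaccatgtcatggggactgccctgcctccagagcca
The stretches differed at 5 of 200 positions. GAGGAA on either strand was found upstream of 20 of the 48 members and of 23.3% of all promoters.

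Pirb read 14.42, 14.43, 14.18 and 14.23 in vehicle cells and 14.88, 14.81, 14.49 and 14.58 with SLIT2. The lowest SLIT2 value lay above the highest vehicle value, and the difference was 0.38 (SE 0.102, limma adjusted p = 0.0466). It passed in 1 of the 8 fits without 1 library, the one without SLIT2 replicate 3 (adjusted p from 0.0323 to 0.122 over the 8). On averaged duplicates Pirb did not pass (limma adjusted p = 0.056). Pira2 read 12.42, 12.50, 12.34 and 12.52 in vehicle cells and 12.11, 11.90, 12.02 and 12.06 with SLIT2. The groups were separate, and Pira2 fell by 0.42 (SE 0.0604, limma adjusted p = 0.00284) and passed in all 8 fits without 1 library. Lilra6, a further activating relative, was 0.39 lower and did not pass (limma adjusted p = 0.108), although it did without vehicle replicate 4 (0.0375). Shared words made up 96.7% of Pira2, 49.6% of Lilra6 and 43.8% of Pirb. How the counting divided such reads is unknown here, so the values of the single PIR genes, Pira2 above all, are uncertain. Unnamed relatives did not pass either: Gm15922, which holds 88.1% of the Pira2 words, differed by 0.05, and Gm14548 by -0.40 (limma adjusted p = 0.263; 0.00421 with the replicate block; 0.0796 on averaged duplicates). Lilra5 lay below the level tested. Lilrb4, an inhibitory receptor, was listed at 0 under an identifier that shares 1846 exonic bases with Lilrb4a on the same strand. Gp49a, a related gene outside the rule, rose by 0.55 (SE 0.0591, limma adjusted p = 7.15e-04). On averaged duplicates Gp49a did not pass (limma adjusted p = 0.054). Its identifier had no match in GENCODE M21, and its shared words were not counted.

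**Figure D2:**
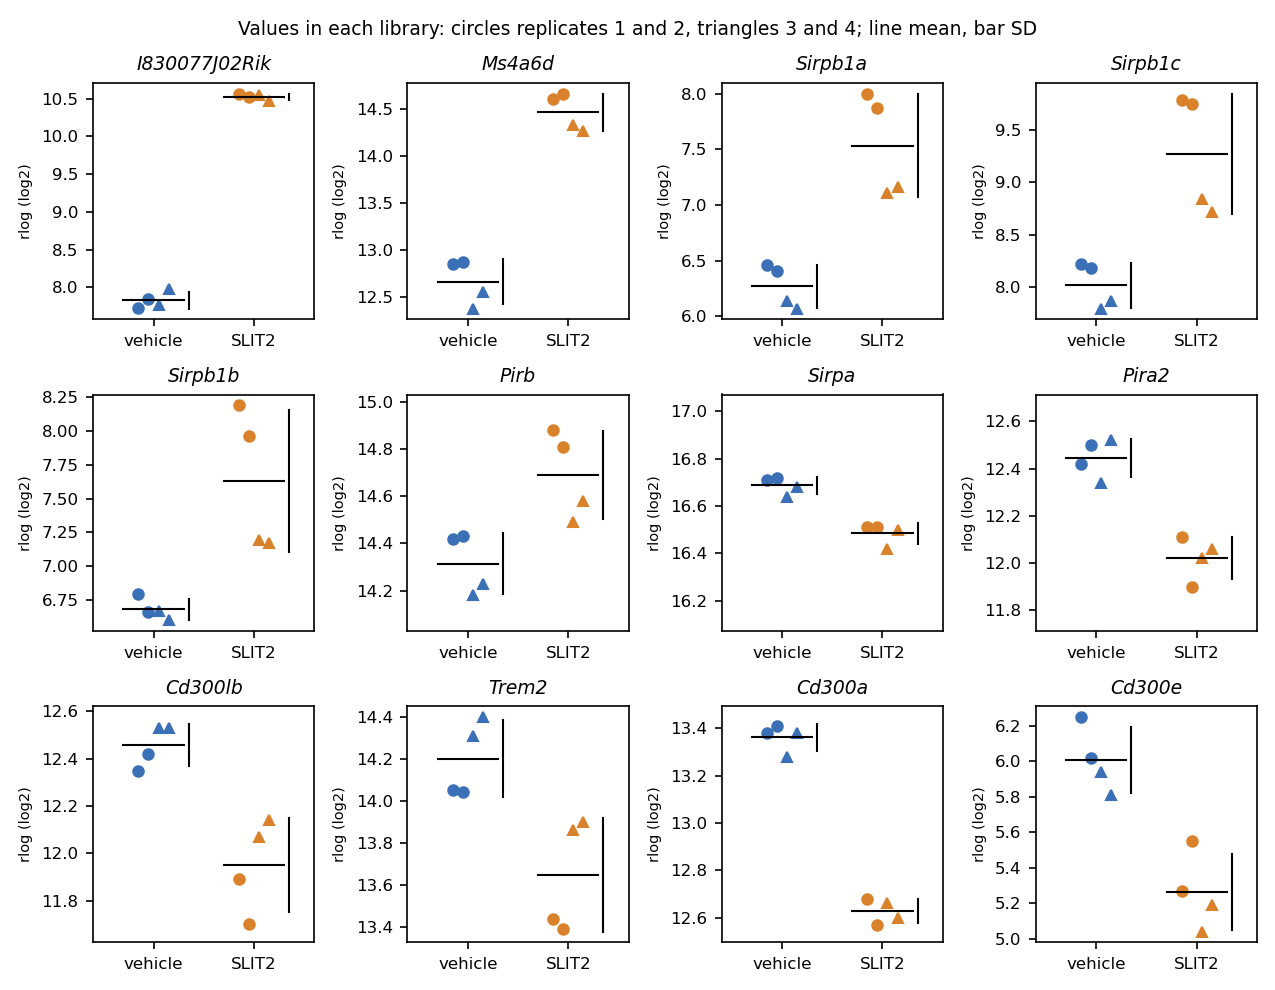
Values (rlog, log2 scale) in each of the 8 libraries for the 12 members that passed the test, with circles for replicates 1 and 2, triangles for replicates 3 and 4, a line at the group mean and a bar for the SD. The groups do not overlap in any panel, and the sets separate clearly for Sirpb1a, Sirpb1c and Trem2 but not for I830077J02Rik or Cd300a.

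The CD300 receptors, which bind lipids such as phosphatidylserine on dying cells, lie together on chromosome 11 (114890041 to 115133992, 7 members, with Cd300lg elsewhere on the chromosome). Of 6 tested, 3 fell and 0 rose, against 6.58% and 6.76% of all genes. With the replicate block 1 rose and 4 fell, against 16.6% and 16.4%. At an unadjusted p of 0.05 limma took 4 of the 6, beside 3114 of all 11851 genes. Cd300a (ENSMUSG00000034652), an inhibitory receptor for phosphatidylserine and phosphatidylethanolamine, read 13.38, 13.41, 13.28 and 13.38 in vehicle cells. With SLIT2 it read 12.68, 12.57, 12.66 and 12.60. The groups were far apart beside their spread: Cd300a fell by 0.74 (SE 0.0452, limma adjusted p = 6.13e-05), rank 29 of 11851 genes by p.

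The activating members Cd300lb and Cd300e fell as well. Cd300lb (ENSMUSG00000063193), which couples to DAP12, read 12.35, 12.42, 12.53 and 12.53 in vehicle cells and 11.89, 11.70, 12.07 and 12.14 with SLIT2. It fell by 0.51 with no overlap (SE 0.0973, limma adjusted p = 0.0113). Cd300e (ENSMUSG00000048498), a receptor of monocytes, read 6.25, 6.02, 5.94 and 5.81 and then 5.27, 5.55, 5.04 and 5.19. The highest SLIT2 value lay below the lowest vehicle value, and Cd300e fell by 0.74 (SE 0.134, limma adjusted p = 0.00859). Both had 0 shared words, and Cd300a had 7.51%.

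Cd300lf, an inhibitory receptor also known as the entry receptor of mouse norovirus, went the other way without passing. It read 8.23, 8.17, 7.70 and 7.66 in vehicle cells and 8.73, 8.63, 8.33 and 8.17 with SLIT2. The groups overlapped, while within each set every SLIT2 value lay above every vehicle value. The difference was 0.53 (SE 0.177, limma adjusted p = 0.0946; 8.79e-04 with the replicate block; 0.0508 on averaged duplicates). Cd300ld, an activating form, differed by 0.12 and did not pass. Cd300lh differed by -0.29 (limma adjusted p = 0.56; 0.0395 with the replicate block; 0.167 on averaged duplicates), and 84.1% of its words were shared. Cd300c and Cd300lg lay below the level tested. Of the relatives named by number in the table, AF251705 (Cd300c2 in GENCODE M21) differed by -0.13 and did not pass. Gm11711 (Cd300ld5) was 1.59 higher with overlap (limma adjusted p = 0.266; 0.0465 with the replicate block; 0.19 on averaged duplicates). Gm11710 (Cd300ld4) was 0.33 higher and did not pass in either fit, and Gm11709 (Cd300ld2) lay below the level tested.

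**Figure D3:**
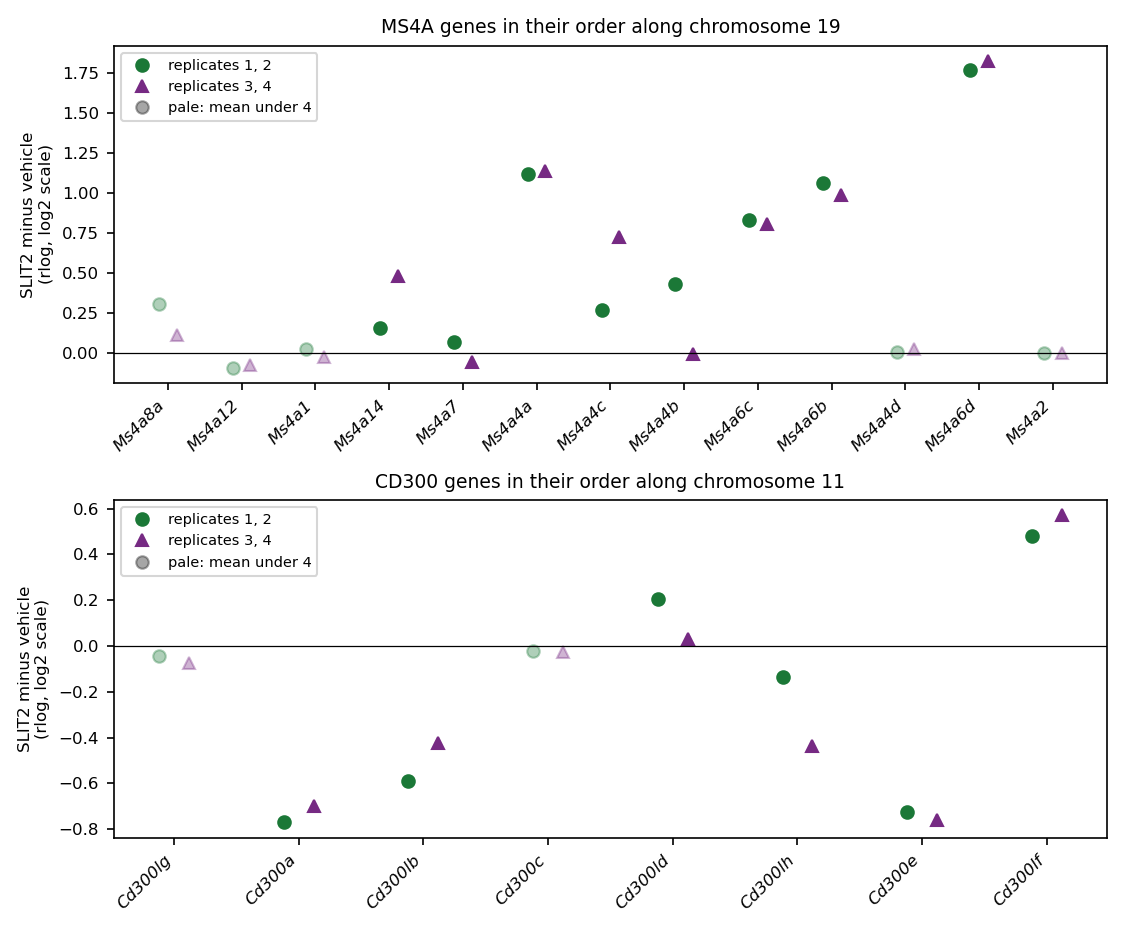
Difference between SLIT2 and vehicle (rlog, log2 scale, vertical axis) for MS4A genes and CD300 genes in their order along the chromosome, with circles for replicates 1 and 2 and triangles for replicates 3 and 4, and pale symbols for genes with a mean under 4. Ms4a6d is highest in both sets, and Cd300a, Cd300lb and Cd300e lie below 0 in both sets.

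Of the 6 TREM genes on chromosome 17 (48232768 to 48367176), 3 were tested and 1 fell, beside 6.58% of all genes. Trem2 (ENSMUSG00000023992) encodes the DAP12-coupled lipid receptor of macrophages and microglia. It read 14.05, 14.04, 14.31 and 14.40 in vehicle cells and 13.44, 13.39, 13.86 and 13.90 with SLIT2. The groups did not overlap, and replicates 3 and 4 were the higher ones in both. Trem2 fell by 0.55 (SE 0.143, limma adjusted p = 0.0389), and it passed in 2 of the 8 fits without 1 library, those without SLIT2 replicate 3 or 4 (adjusted p from 0.0311 to 0.0966 over the 8).

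Treml2 read 5.51, 5.51, 4.85 and 5.06 in vehicle cells and 6.58, 6.64, 5.85 and 5.53 with SLIT2. The groups did not overlap, and the difference of 0.92 missed the threshold (limma adjusted p = 0.0696; 0.0303 without SLIT2 replicate 4; 0.00256 with the replicate block; 0.058 on averaged duplicates). Treml1, best known from platelet granules, differed by 0.12 and did not pass. Its values followed the sets, 4.84, 4.66, 5.97 and 5.73 in vehicle cells and 5.11, 4.81, 6.09 and 5.68 with SLIT2. The platelet genes Ppbp and Pf4 were 1.15 and 1.36 higher with SLIT2 and did not pass (limma adjusted p = 0.0908 and 0.212; 0.0134 and 7.15e-04 with the replicate block; 0.133 and 0.0512 on averaged duplicates). Among the 6 erythroid or megakaryocytic markers 1 was listed at 0. Their summed level on the log2 scale ran from 9.05 to 10.53 in vehicle cells and from 9.95 to 12.31 with SLIT2. Over both groups, replicates 3 and 4 minus replicates 1 and 2 was 1.01 for Treml1, -0.895 for Ppbp and -1.74 for Pf4. The part of these markers in the Treml1 values was not tested. Trem1, an amplifier of inflammation, lay below the level tested, as did Trem3 and Treml4.

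The adaptors were read in part. Tyrobp, which encodes DAP12 and whose words are shared with no other gene, was listed at 0 in all 8 libraries, and an exact 0 in this table can be a failed estimate. Nothing can be said here of its level. Its neighbour Hcst, which encodes DAP10, read 6.90, 7.04, 7.34 and 7.41 in vehicle cells and 7.06, 6.96, 7.01 and 6.98 with SLIT2. The groups overlapped and the difference of -0.17 did not pass (limma adjusted p = 0.423). Fcer1g, the Fc receptor gamma chain, was 0.16 higher and did not pass (limma adjusted p = 0.206; 0.0143 with the replicate block; 0.167 on averaged duplicates).

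In the CD200R and PILR families 0 of 5 genes tested were called by limma, and 0 had an unadjusted p under 0.05. Over all genes 13.3% were called, and 3114 of 11851 had an unadjusted p under 0.05. With the replicate block 1 of the 5 was called, beside 33.0% of all genes. Cd200r4, which pairs with DAP12, was that gene and differed by -0.17 (limma adjusted p = 0.716; 0.0285 with the block; 0.16 on averaged duplicates). Cd200r1, the inhibitory receptor for CD200, read from 12.16 to 12.25 in vehicle cells and from 12.27 to 12.31 with SLIT2. The groups did not overlap, yet the difference of 0.07 did not pass (limma adjusted p = 0.265). The inhibitory Pilra differed by 0.09 with a 95% interval from -1.18 to 1.35, and it was 1.56 lower in replicates 3 and 4 than in replicates 1 and 2. Pilra shares 468 exonic bases with Zcwpw1 on the opposite strand, and whether the counting used strand is unknown here. The activating Pilrb1 and Pilrb2 differed by -0.11 and -0.20.

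The gap between an inhibitory and an activating member was taken within each library for 15 pairs, as a description without a test. Since rlog values are not divided by transcript length, the gap itself is no ratio of levels, and only its change between groups is read. Groups did not overlap for 9 pairs: the inhibitory member gained on the activating one in 5 and lost in 4, and 6 overlapped. The 9 pairs share members and rest on 4 inhibitory genes, Pirb, Cd300lf, Sirpa and Cd300a, so they are not 9 separate observations. The Pirb minus Pira2 gap was 2.00, 1.93, 1.84 and 1.71 in vehicle cells and 2.77, 2.91, 2.47 and 2.52 with SLIT2, wider by 0.80. The gap of Sirpa to Sirpb1a changed by -1.47, to Sirpb1b by -1.15 and to Sirpb1c by -1.47. In the values as counted, the SIRP gaps moved towards the activating forms and the PIR gap towards the inhibitory form. The Sirpb1 and PIR genes share much sequence with other genes, so these shifts may depend on how reads were divided. Cd300lf gained 1.27 on Cd300e and 1.03 on Cd300lb, while Cd300a lost 0.85 against Cd300ld. The Cd300a gap to Cd300e changed by 0.01, both having fallen by 0.74.

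**Figure D4:**
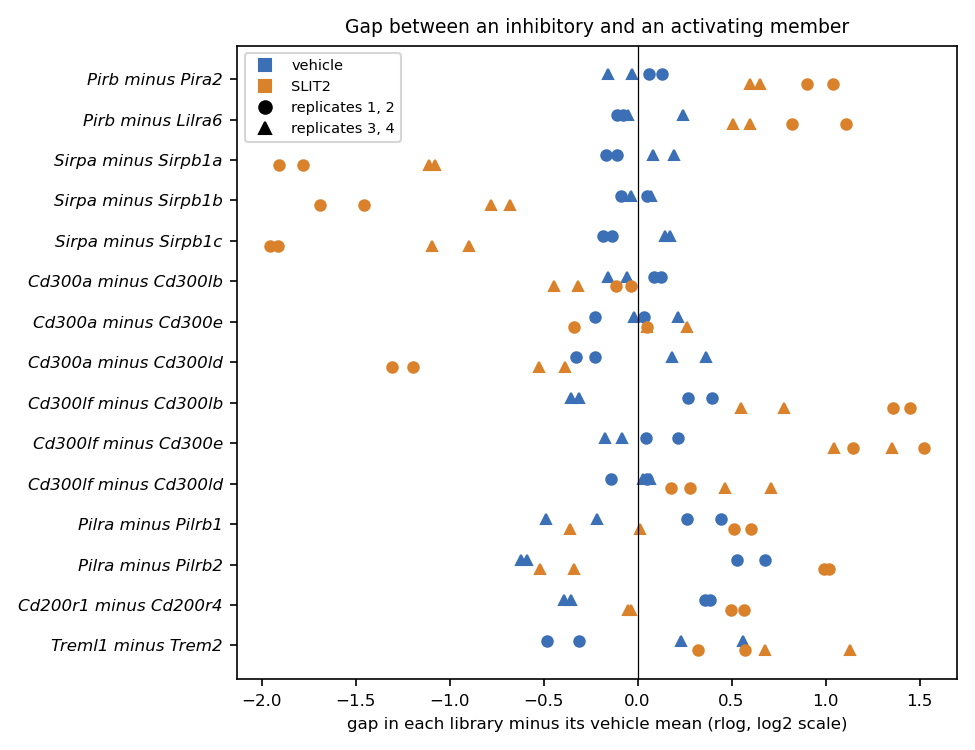
Gap between an inhibitory and an activating member in each library, minus the vehicle mean of that gap (rlog, log2 scale, horizontal axis), for 15 pairs, in blue for vehicle and orange for SLIT2, with circles for replicates 1 and 2 and triangles for 3 and 4. The 3 gaps of Sirpa to Sirpb1 genes lie to the left with SLIT2 and the gaps of Pirb and Cd300lf lie to the right, while the PILR and CD200R gaps follow the replicate sets.

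Beside 6.76% of all genes rising and 6.58% falling, 1 of 7 inhibitory members tested rose (Pirb) and 2 fell (Cd300a and Sirpa). Of 12 activating members tested, 3 rose, all Sirpb1 genes, and 4 fell (Pira2, Cd300lb, Cd300e and Trem2). The median difference was 0.09 for inhibitory and -0.19 for activating members. Both classes held members that rose and members that fell.

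The MS4A genes lie in a row on chromosome 19 (10962293 to 11640851, 19 members). Of these, 8 were tested, and all 8 had a positive difference, with a median of 0.66. Over all genes 5993 of 11851 differences were positive, and the median was 0.00. By limma 1 of the 8 rose, near the share of 6.76% over all genes, and with the replicate block 6 did, where that share was 16.6%. On averaged duplicates 4 of the 8 passed as higher, beside 373 of 11851 genes. Ms4a6d (ENSMUSG00000024679, 11586604 to 11604849) read 12.85, 12.88, 12.38 and 12.56 in vehicle cells and 14.60, 14.66, 14.33 and 14.26 with SLIT2. The SLIT2 values were all at least 1 unit above the vehicle values, and the difference was 1.80 (SE 0.136, limma adjusted p = 1.5e-04), alike in replicates 1 and 2 (1.77) and in replicates 3 and 4 (1.83).

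Other MS4A genes shifted between replicate sets as well as between groups. Replicates 3 and 4 minus replicates 1 and 2 was -1.28 for Ms4a4a, -1.54 for Ms4a6b and -0.665 for Ms4a6c. Ms4a4a, which encodes a protein of alternatively activated macrophages, read 11.80, 11.84, 10.43 and 10.64 in vehicle cells and 12.83, 13.05, 11.84 and 11.50 with SLIT2. Within each set every SLIT2 value lay above every vehicle value while the groups overlapped, and the difference was 1.13 (limma adjusted p = 0.158; 2.83e-04 with the replicate block). Ms4a6b read 11.89, 11.91, 10.42 and 10.37 and then 12.97, 12.96, 11.50 and 11.27, a difference of 1.03 with overlap (limma adjusted p = 0.281; 3.1e-05 with the block). Ms4a6c read 13.09, 13.11, 12.43 and 12.46 and then 13.92, 13.94, 13.35 and 13.16, with no overlap and a difference of 0.82 (limma adjusted p = 0.057; 0.0412 without SLIT2 replicate 4; 6.1e-05 with the block). It shares 1088 exonic bases with BE692007 on the opposite strand. Ms4a4c differed by 0.50 and Ms4a14 by 0.32, and both passed with the replicate block (limma adjusted p = 0.0191 and 0.0238) and not on averaged duplicates (0.148 and 0.155).

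Ms4a7, a marker of tissue macrophages, read from 14.73 to 14.89 in vehicle cells and from 14.76 to 14.82 with SLIT2, a difference of 0.01 with a 95% interval from -0.10 to 0.12. This interval lies below the difference of Ms4a6d. Ms4a4b differed by 0.22 and did not pass. Ms4a1, which encodes the B cell antigen CD20, and Ms4a2, the mast cell IgE receptor chain, lay below the level tested, as did Ms4a12, Ms4a4d and Ms4a8a. Ms4a3, a gene of granulocyte and monocyte progenitors, was listed at 0, as were Ms4a5, Ms4a10, Ms4a13, Ms4a15 and Ms4a18.

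Of 5 SLAM receptors tested 0 were called by limma, 1 had an unadjusted p under 0.05, and 1, Slamf6, passed with the replicate block. Over all genes these were 13.3%, 3114 of 11851 and 33.0%. Slamf6, a self-binding receptor mostly studied in lymphocytes, read 5.31, 5.76, 5.29 and 5.45 in vehicle cells and 7.71, 7.07, 5.99 and 5.73 with SLIT2. The SLIT2 replicates 1 and 2 stood well above the rest, and SLIT2 replicate 4 lay below the highest vehicle value. The difference of 1.17 came from 1.86 in replicates 1 and 2 beside 0.49 in replicates 3 and 4 (limma adjusted p = 0.107; 0.0485 without SLIT2 replicate 4; 0.0363 with the block; 0.173 on averaged duplicates). The T or NK cell markers had a summed level from 2.44 to 2.67 in vehicle cells and from 2.40 to 2.52 with SLIT2. For the B cell markers it ran from 4.20 to 4.30 in vehicle cells and from 4.23 to 4.27 with SLIT2. The part of such cells in the Slamf6 values was not tested. Slamf1, Slamf7, Slamf8 and Slamf9 differed by 0.10, -0.05, -0.02 and 0.03.

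I830077J02Rik (ENSMUSG00000074342) had the widest difference of all members. It lies on chromosome 3 (GRCm38, 105924358 to 105932664, minus strand, protein coding). It read 7.73, 7.85, 7.76 and 7.98 in vehicle cells and 10.56, 10.52, 10.55 and 10.47 with SLIT2. The SLIT2 values lay within a narrow band far above the vehicle values in both sets. The mean rose from 7.83 ± 0.11 to 10.53 ± 0.040 (SD, n = 4 each), a difference of 2.70 (SE 0.0657, limma adjusted p = 3.23e-07). It ranked 3 of 11851 genes by p and 11 by absolute size.

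The 120 bases before its start (chr3:105932665-105932784, RefSeq, GRCm38.p6, minus strand) are shown as the promoter of the member that changed most. Capitals mark GAGGAA, and TTCNNNGAA was not found in the 250 bases searched.
I830077J02Rik: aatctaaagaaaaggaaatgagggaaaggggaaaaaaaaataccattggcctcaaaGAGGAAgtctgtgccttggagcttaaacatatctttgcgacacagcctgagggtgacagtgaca
Of its words 0.417% were shared with other genes. The gene next to it, Tmigd3, ends 315 bases away and was listed at 0. Adora3, an adenosine receptor gene that overlaps Tmigd3 and lies 15431 bases away, rose by 3.12 (limma adjusted p = 1.54e-06), and Atp5f1, 10033 bases away on the other side, rose by 0.36 (limma adjusted p = 0.0258).

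The 5 genes outside the families whose values over the 8 samples were most like those of I830077J02Rik were found by Pearson correlation, given as a description since the samples share the treatment. They were Socs3 (r = 0.99794), a feedback inhibitor of cytokine receptors, Bcl3 (r = 0.99789), an NF-kappaB cofactor, Pmvk (r = 0.99669), an enzyme of the mevalonate pathway, Sept8 (r = 0.99588), a septin, and Tmem140 (r = 0.99571). Their differences were 4.52, 1.73, 1.65, 0.47 and 0.37.

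The signalling proteins below the receptors were taken from a list of 46 kinases, phosphatases and adaptors, of which 42 were tested. By limma 7 rose and 9 fell, against 6.76% and 6.58% of all genes (16 and 14 with the replicate block, against 16.6% and 16.4%). The median difference was 0.04 over the list and 0.00 over all genes tested. Those that rose included the Src-family kinase Lyn, the adaptors Lcp2, Skap2 and Card9, the exchange factor Vav1 and the PI3-kinase subunit Pik3cd. Lyn, which phosphorylates both motif types, read 13.16, 13.15, 13.11 and 13.11 in vehicle cells and 13.49, 13.51, 13.39 and 13.38 with SLIT2, a difference of 0.31 (SE 0.0440, limma adjusted p = 0.00273). Lcp2, which encodes SLP-76, rose by 0.39 and Vav1 by 0.54 (limma adjusted p = 0.00122 and 0.00124). On averaged duplicates Lcp2, Vav1, Card9 and Pik3cd passed (limma adjusted p = 0.0416, 0.0332, 0.0455 and 0.0336). Lyn and Skap2 did not pass in that fit (limma adjusted p = 0.0578 and 0.09).

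Those that fell were Lat2, Lat, Dok2, Malt1, Sh3bp2, Pik3ap1, Inppl1, Prkcd and Tec. On averaged duplicates Lat2 and Malt1 passed (limma adjusted p = 0.0336 and 0.036). The others did not (limma adjusted p from 0.052 for Dok2 to 0.105 for Tec). Lat2, an adaptor that scaffolds signalling from activating receptors in myeloid cells, read 11.95, 12.07, 12.23 and 12.43 in vehicle cells and 11.38, 11.49, 11.50 and 11.76 with SLIT2. It fell by 0.64 with no overlap (SE 0.117, limma adjusted p = 0.0090). Dok2, a docking protein of inhibitory pathways, fell by 0.55 (SE 0.0890, limma adjusted p = 0.00541). Fgr, another Src-family kinase, was 1.86 higher and did not pass without a block (limma adjusted p = 0.115). Fgr passed with the replicate block and on averaged duplicates (limma adjusted p = 7.15e-05 and 0.0296). Its set shift of -1.89 was as wide as the difference between groups. Syk, the kinase read by activating motifs, differed by 0.02 (95% interval from -0.22 to 0.27), and Ptpn6, which encodes SHP-1, by 0.11 (limma adjusted p = 0.153; 0.0295 with the block; 0.183 on averaged duplicates).

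Of 22 tested genes from a list of ligands and partners, 2 rose and 5 fell by limma, against 6.76% and 6.58% of all genes. With the replicate block 6 rose and 8 fell, against 16.6% and 16.4%. The median difference was 0.04 over the list and 0.00 over all genes tested. Il4ra rose by 3.31, but it is a cytokine receptor chain and no ligand of these families. Cd244, the SLAM-family receptor for CD48, read 7.51, 7.5, 7.5 and 7.67 in vehicle cells and 8.83, 8.85, 9.51 and 9.43 with SLIT2. The groups were far apart, with a difference of 1.61 (SE 0.167, limma adjusted p = 6.03e-04). Its ligand Cd48 fell by 0.15 (limma adjusted p = 0.0419) and the SLAM relatives Ly9 and Cd84 by 0.61 and 0.32 (limma adjusted p = 6.03e-04 and 0.0135). Cd200, the ligand of CD200R1, fell by 0.54 (limma adjusted p = 0.0115), and Plxna1, a plexin that associates with TREM2 and DAP12, by 0.73 (limma adjusted p = 0.00998). On averaged duplicates Cd48, Ly9, Cd84, Cd200 and Plxna1 did not pass (limma adjusted p = 0.173, 0.0513, 0.0637, 0.097 and 0.0508). Il4ra and Cd244 passed in that fit (limma adjusted p = 0.0119 and 0.0402). The SLAM-family genes of this list carry names outside the Slamf series.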

How the data were processed

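Stranded mRNA libraries (300 ng RNA input, 101 bp paired-end reads) were sequenced, per the labels' protocols. Tools named in the submitters' processing notes are STAR, Salmon, DESeq2, Picard 2.23.8, SAMtools 1.7 and FastQC 0.11.9, and the builds are GRCm38 and mm10. The authors deposited rlog values on a log2 scale with 2 decimals, which shrink low genes towards their mean and hold no counts.

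Here, limma 3.58.1 (R 4.3.3, lmFit and eBayes with trend) compared the groups for genes with a mean of at least 4, two-sided, with Benjamini-Hochberg adjustment over all genes tested and a threshold of 0.05. The steps were tested on simulated data. Samples of the same replicate set deviated together, whether or not their numbers matched. The replicate number was used as a block, although the values show no pairing by number within a set. Coordinates and 31-base words came from GENCODE M21 on GRCm38, promoters from RefSeq on GRCm38.p6 (48 of 57 members matched), and figures from matplotlib 3.10.9. Motif searches covered 250 bases upstream of the RefSeq start on both strands. The STAT6-type motif, TGANTCA (AP-1) and TTGCNNAA (C/EBP) were found for 3, 5 and 9 members and in 5.85%, 6.75% and 9.56% of all promoters.

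Members, gene lists and the rule for named genes were chosen with earlier results of these data known. The rule accounts for each member, gives called members their values, names called genes of the signalling and ligand lists, and takes the 5 genes most like the member of the widest called difference. Alternatives were the replicate block, other filters, variance priors and scalings, a size of at least 0.5, each set alone, averaged duplicates and leaving out each library. Matching members by GENCODE M21 symbol was added after the table was seen; it brought in 4 genes. The result of 1 gene of the signalling list is not reported here, while every test and count kept it.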

Additional observations from a re-analysis of the deposited data

Results flagged for a closer look

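Within the SLIT2 group, replicate 3 of Sirpa read 16.42, while the other replicates lay at 16.50 and 16.51. Its gap to the nearest value exceeded the critical share of the range in Dixon's test for 4 samples, a mark that chance gives to about 1 in 20 groups. For Sirpb1b, the difference between SLIT2 and vehicle in replicates 3 and 4 minus that in replicates 1 and 2 was -0.805 (limma adjusted p = 0.0211), and for Sirpb1c it was -0.615 (limma adjusted p = 0.0140). In both sets, both genes were higher with SLIT2 in every library. What the replicate sets stand for is not given in the labels.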

How the results depend on the processing

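Of the 12 members called, 6 kept their call under every alternative run for them: I830077J02Rik, Ms4a6d, Cd300a, Cd300e, Cd300lb and Sirpb1a. Pira2 lost it only at an absolute difference of at least 0.5, and Sirpb1c only without vehicle replicate 4 and with averaged duplicates (adjusted p = 0.0502 and 0.061). Sirpb1b, Trem2, Pirb and Sirpa lost it in most fits that left out 1 library. Sirpb1b, Pirb and Sirpa also lost it on averaged duplicates (limma adjusted p = 0.121, 0.056 and 0.163). No result reversed, and 14 uncalled members were called under some setting. The replicate number, used as a block, gave 14 members higher instead of 6. It gave 16 signalling genes higher instead of 7 and 14 lower instead of 9. It also gave 6 ligand genes higher instead of 2 and 8 lower instead of 5. Over all 11851 genes tested, 1966 rose instead of 801 and 1946 fell instead of 780. The replicate set as a block gave 14 members higher, 19 and 14 signalling genes and 7 and 8 ligand genes. In that fit 2365 of all 11851 genes rose and 2287 fell. Replicates 1 and 2 alone gave 15 members, 18 signalling genes and 7 ligand genes higher, and replicates 3 and 4 alone gave 14 members and 4 ligand genes higher. Over all genes tested, 2004 of 11851 rose in the first of these fits and 1474 of 11850 in the second. The counts over all genes thus grew in these fits too. Averaged duplicates, with the set as a block, gave 6 members higher and 5 lower, 5 signalling genes and 2 ligand genes higher, and so fewer than the replicate block. They also gave 3 signalling genes and, by limma, 0 ligand genes lower, with 6 of 22 lower at an unadjusted p of 0.05 in that fit. Over all 11851 genes, 373 rose and 315 fell on averaged duplicates. The members were not all the same: of the 12 called without a block 8 passed there, and Ms4a4a, Ms4a6b and Ms4a6c came in. A size of at least 0.5 left 1 signalling gene higher and 4 lower, and 3 ligand genes lower. Quantile normalization gave 4 members in place of 2 whose difference differed between sets. Leaving out 1 library gave 3 to 8 members higher, with 3 without vehicle replicate 4, while 517 to 665 of all 11851 genes rose. The causes of these changes were not tested. Depth is unknown, so counting error and the limit for genes near the floor cannot be stated.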
